A study of Mus musculus with 12 samples.

Results

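The genes described here are the mouse Notch receptors Notch1, Notch2, Notch3 and Notch4, the Notch ligands Jag1 and Jag2, the DNA-binding partner of the receptors Rbpj, the receptor regulator Dtx1, and the target genes Hes1 and Hes5. They were picked by symbol, all 10 have a row among the 23224 genes of the deposited table, and 9 passed the filter on low counts and were tested; Notch3 was not. RNA was sequenced from mouse leukemia cells of the pre-B acute lymphoblastic type, which arise from precursors of B cells, to ask what the loss of Phf6, a nuclear protein that binds chromatin, changes. By their labels all 4 groups share a strain and genotype: cells of the C57BL/6J strain that carry the BCR-ABL1 fusion kinase and are null for p19, the tumour suppressor also known as ARF. The groups, with 3 libraries each, are Phf6 wild type (WT), cells with an shRNA against Phf6 (KD), and cells labelled null for Phf6 made with guide RNA sg1 (KO_sg1) or sg4 (KO_sg4). The labels do not say whether a group is a clone or a pool, which control vector the WT cells carry, or whether replicates were separate cultures, so p-values measure only the spread between libraries, which may be technical.

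Library totals ran from 20382328 to 36032369 estimated counts, so that 3 counts, the floor used here, correspond to 0.0833 to 0.147 CPM by library totals alone. Elsewhere CPM are library-size-scaled counts with TMM factors between libraries, unless stated. Phf6 itself stood at 34.2, 33.9 and 35.3 CPM in WT, at 9.08, 8.98 and 8.29 in KD, and at 3.23, 3.24 and 3.74 in KO_sg1, but at 44.2, 29.5 and 36.1 in KO_sg4. Phf6 mRNA therefore did not check the KO_sg4 label, which is used below as the name of the libraries so labelled. The Y-linked genes Ddx3y, Kdm5d, Uty and Eif2s3y were summed with scaling by library totals alone, without TMM factors. Their sum was 74.7 to 86.0 CPM in WT and 113 to 120 in KD, against 0.0331 to 0.142 in the knockout libraries. That difference cannot be told apart from the knockout in these groups. The labels do not say whether the knockout cells and the WT cells came from the same animal, so this holds for every knockout value below that is set against WT or KD. All 10 B-cell precursor markers were above 1 CPM in every group, and their sum ran from 5404 to 7529 CPM in WT and both knockouts and from 15499 to 16058 in KD. The T-cell marker Cd3e was at 0 in WT and both knockouts, and Themis and Trat1 were at 0 in all groups. The sum of 12 T-cell markers ran from 9.66 to 10.3 CPM in WT and 7.96 to 9.68 in KO_sg4, and from 13.9 to 16.6 in KD and 14.4 to 15.7 in KO_sg1. Most of it came from Lat, at a mean of 2.26 CPM in WT and 7.17 in KD, and Zap70, at 4.77 in WT and 8.0 in KO_sg1; Thy1 stood at 0.236 in WT, 0.888 in KD and 0 in both knockouts.

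Notch receptors are membrane proteins that bind Jagged or Delta-like ligands on a neighbouring cell. Binding lets ADAM proteases and then the gamma-secretase complex cut the receptor, and the freed intracellular domain joins RBPJ on DNA and switches on target genes such as the HES repressors. In lymphoid development Notch1 is known for driving T-cell fate in the thymus, and Notch2 for marginal-zone B cells in the spleen.

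The promoters of Hes5 and Jag2, the members with the largest rise and the largest fall in the knockouts, are shown first because the Hes5 promoter holds matches to the RBPJ recognition core. The search covered 250 bases before to 50 after each RefSeq transcription start (GRCm38.p6) for TGGGAA, with TTCCCA on the other strand, and for the longer GTGGGAA, with TTCCCAC on the other strand, which contains the shorter motif. The 250 bases before the Hes5 start, on the plus strand at chr4:154960673-154960922 with the GTGGGAA matches in capitals, and the 150 bases before the Jag2 start, on the minus strand at chr12:112929496-112929645, read:
Hes5: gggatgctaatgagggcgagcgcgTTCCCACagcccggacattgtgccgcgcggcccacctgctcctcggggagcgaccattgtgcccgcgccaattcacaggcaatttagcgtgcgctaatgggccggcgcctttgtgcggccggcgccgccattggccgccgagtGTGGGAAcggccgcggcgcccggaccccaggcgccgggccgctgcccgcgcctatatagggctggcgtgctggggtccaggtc
Jag2: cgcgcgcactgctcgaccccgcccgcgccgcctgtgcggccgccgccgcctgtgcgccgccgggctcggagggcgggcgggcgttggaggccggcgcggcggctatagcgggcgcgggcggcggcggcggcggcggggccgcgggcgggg

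In Hes5 the match nearer the start lies on the plus strand, 83 bases before the start, and the other on the minus strand, 226 bases before it. Each is shown here with the 10 bases on either side, read on the strand of the motif.
Hes5, 83 bases before the start, chr4:154960830-154960856: gccgccgagtGTGGGAAcggccgcggc
Hes5, 226 bases before the start, chr4:154960687-154960713: tgtccgggctGTGGGAAcgcgctcgcc

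Promoters of 9 members had an entry, and Hes1, which had none, was not searched. GTGGGAA was found in 1 of the 9, Hes5, against 6.383% of all 32851 promoters. The shorter TGGGAA was found in 2 of the 9, Hes5 and Rbpj, against 25.56% of all. In the Jag2 promoter neither motif was found. A match describes the letters only and does not show binding.

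Among the receptors, Notch1 and Notch2 were the abundant ones, and both were higher in KD than in any other group. Notch1 stood at 38.0, 36.7 and 38.9 CPM in WT, 110, 105 and 108 in KD, 30.6, 28.1 and 28.9 in KO_sg1, and 32.2, 32.5 and 31.8 in KO_sg4. The KD libraries lay above all others and both knockouts lay below every WT library. The log2 fold change was 1.51 ± 0.05 (SE) in KD (adjusted p = 1.92e-11, edgeR's quasi-likelihood test with Benjamini-Hochberg adjustment over all 12335 genes tested), -0.37 ± 0.05 in KO_sg1 (adjusted p = 7.08e-05) and -0.24 ± 0.05 in KO_sg4 (adjusted p = 0.0025).

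Notch2 stood at 11.9, 12.5 and 12.5 CPM in WT, 49.3, 45.9 and 44.9 in KD, 8.45, 7.90 and 6.80 in KO_sg1, and 13.3, 8.95 and 10.9 in KO_sg4. KD was again above every other library, KO_sg1 was below WT without overlap, and the KO_sg4 libraries spread to both sides of WT. Notch2 rose by 1.93 ± 0.11 in KD on the log2 scale (adjusted p = 1.42e-09) and changed by -0.66 ± 0.12 in KO_sg1 (adjusted p = 0.000721). In KO_sg4 it differed from WT by -0.14 ± 0.12 and was not called (adjusted p = 0.389); without KO_sg4 replicate 1, its highest library, the value was -0.29 and was called (adjusted p = 0.0282).

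Notch4, a receptor best known from endothelial cells, was below 1 CPM in every library. Its values were 0.549, 0.602 and 0.274 CPM in WT, 0.811, 0.754 and 0.886 in KD, 0.849, 0.648 and 0.335 in KO_sg1, and 0.557, 0.733 and 0.476 in KO_sg4. The KD libraries lay above the WT libraries, by 0.76 ± 0.32 on the log2 scale (adjusted p = 0.0423), a call lost without any of WT replicates 1 and 3, KD replicates 1, 2 and 3 or KO_sg1 replicate 2 (adjusted p from 0.0533 to 0.149). That call was also lost in DESeq2 (adjusted p = 0.0621) and in edgeR with no filter (adjusted p = 0.0734). Notch4 passed the filter on low counts through KD and KO_sg4. The knockouts overlapped WT, at 0.39 ± 0.34 in KO_sg1 (adjusted p = 0.393) and 0.25 ± 0.34 in KO_sg4 (adjusted p = 0.603).

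Notch3, a receptor also known from vascular smooth muscle and T-cell leukemia, was at 0.0687, 0 and 0.0391 CPM in WT, from 3 estimated counts in all. It was at 0 in the other 9 libraries, each value at or below the floor, so no fold change is given.

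The ligand Jag2 had the largest change of all members, and it was in the knockouts. It stood at 25.1, 24.8 and 25.2 CPM in WT and 34.6, 31.5 and 30.6 in KD, but at 1.09, 1.09 and 0.613 in KO_sg1 and 0.433, 0.929 and 0.408 in KO_sg4. All 6 knockout libraries were far below all WT and KD libraries. Jag2 was 25.6-fold lower in KO_sg1 (log2 fold change -4.68 ± 0.17, adjusted p = 5.50e-11) and 45.0-fold lower in KO_sg4 (-5.49 ± 0.18, adjusted p = 1.49e-11). In KD it rose by 0.36 ± 0.11 on the log2 scale (adjusted p = 0.00972), with all KD libraries above all WT libraries.

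Jag1, the other Jagged ligand, was close to the floor. It stood at 0.206, 0.167 and 0.117 CPM in WT, 0.437, 0.453 and 0.728 in KD, 0, 0 and 0.112 in KO_sg1, and 0.0929, 0.0489 and 0.0340 in KO_sg4. KD was above and both knockouts below WT without overlap, but the 3 KO_sg1 libraries held 2 counts together and the WT libraries 14. By counts alone the WT level was 6.34 times that of KO_sg1, with a 95% counting interval from 1.46 to 57.5. The fall in KO_sg1 had an adjusted p of 0.042, and the call was lost without any of WT replicates 1, 2 and 3, KD replicates 1 and 2 or KO_sg1 replicates 1 and 2 (adjusted p from 0.0520 to 0.161), with the replicate block (adjusted p = 0.0629) and in DESeq2 (adjusted p = 0.0705). KO_sg4 was not called (-1.38 ± 0.73, adjusted p = 0.155), and KD was higher by 1.69 ± 0.46 on the log2 scale (adjusted p = 0.00406). Jag1 passed the filter on low counts through KD alone, so its call in KD is a description and not support for a rise.

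**Figure D1:**
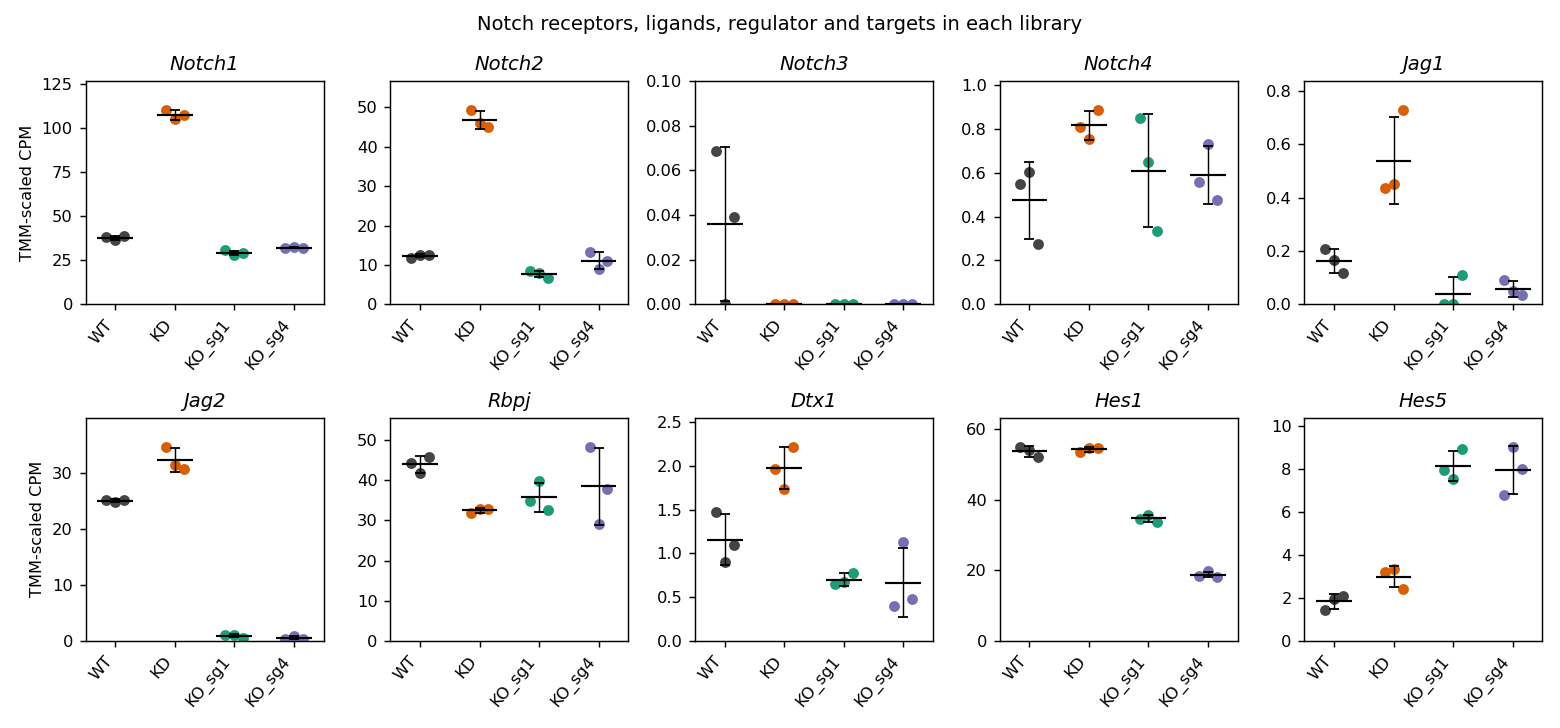
Level of each of the 10 members in CPM (vertical axes, from 0, each panel with its own scale) in the 3 libraries of each group (points), with the group mean and SD (bars; the SD of Jag1 in KO_sg1 is cut at 0). Notch1 and Notch2 are highest in KD, Jag2 is near 0 in both knockouts, Hes1 falls from WT to KO_sg1 to KO_sg4, and Hes5 is highest in both knockouts.

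Rbpj, the DNA-binding protein through which the cut receptors act, varied little. It stood at 44.4, 41.7 and 45.9 CPM in WT, 31.8, 32.9 and 32.9 in KD, 34.7, 39.8 and 32.7 in KO_sg1, and 48.3, 29.1 and 37.9 in KO_sg4. KD and KO_sg1 lay below WT without overlap, and KO_sg4 spread across the whole range. Rbpj fell in KD by 0.43 ± 0.13 on the log2 scale (adjusted p = 0.00791), a call lost when libraries were scaled by their totals (-0.21, adjusted p = 0.246). It differed from WT by -0.29 ± 0.13 in KO_sg1 (adjusted p = 0.0936) and -0.19 ± 0.13 in KO_sg4 (adjusted p = 0.289). Neither was called in the main fit. Both standard errors rest on a spread fitted over all 4 groups, while the SD was 3.64 CPM in KO_sg1 and 9.62 in KO_sg4. KO_sg1 was called when only WT and KO_sg1 were fitted (adjusted p = 0.00498), and without KO_sg4 replicate 1 (adjusted p = 0.0137) or 2 (adjusted p = 0.0128). KO_sg4 was called without KO_sg4 replicate 1 (-0.38, adjusted p = 0.00562).

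Dtx1, an E3 ubiquitin ligase of the Deltex family that binds the receptor and is itself a Notch target in lymphocytes, was low. It stood at 1.48, 0.904 and 1.09 CPM in WT, 1.97, 1.74 and 2.22 in KD, 0.647, 0.678 and 0.781 in KO_sg1, and 0.403, 1.12 and 0.476 in KO_sg4. KD lay above and KO_sg1 below WT without overlap, while 1 KO_sg4 library lay within the WT range. Dtx1 was higher in KD by 0.77 ± 0.27 on the log2 scale (adjusted p = 0.0173), a call lost without WT replicate 2 (adjusted p = 0.0854) or KD replicate 3 (adjusted p = 0.0564). It differed by -0.74 ± 0.32 in KO_sg1 and was not called (adjusted p = 0.0854). It was called there without KO_sg4 replicate 2 (adjusted p = 0.0244) and when only WT and KO_sg1 were fitted (adjusted p = 0.0331). In KO_sg4 Dtx1 was called lower at -0.89 ± 0.32 (adjusted p = 0.0413). That call was lost when any 1 of 9 libraries was left out (adjusted p from 0.0509 to 0.179). These were all but WT replicate 2, KO_sg1 replicate 3 and KO_sg4 replicate 2. The call was also lost when only WT and KO_sg4 were fitted (adjusted p = 0.122), in DESeq2 (adjusted p = 0.0506) and with the replicate block (adjusted p = 0.0743).

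The target genes Hes1 and Hes5 moved in opposite directions in the knockouts. Hes1, a basic helix-loop-helix repressor and a classical direct Notch target, stood at 55.0, 54.0 and 52.1 CPM in WT and at 53.5, 54.6 and 54.7 in KD. It stood at 34.6, 35.7 and 33.8 CPM in KO_sg1 and at 18.5, 19.7 and 18.2 in KO_sg4. WT and KD overlapped, KO_sg1 lay below both, and KO_sg4 lay below KO_sg1 without overlap. Hes1 fell by 0.63 ± 0.05 on the log2 scale in KO_sg1 (adjusted p = 3.10e-07) and by 1.51 ± 0.05 in KO_sg4 (adjusted p = 2.91e-11). In KD it differed from WT by 0.01 ± 0.05 (adjusted p = 0.798), and by 0.23 with an adjusted p of 0.00313 when libraries were scaled by their totals.

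Hes5, a repressor of the same family best known from neural progenitors, stood at 1.44, 1.97 and 2.11 CPM in WT, 3.21, 3.36 and 2.44 in KD, 7.96, 7.54 and 8.92 in KO_sg1, and 6.81, 9.04 and 8.02 in KO_sg4. All 6 knockout libraries were above all KD libraries, and these above all WT libraries. Hes5 rose by 2.14 ± 0.17 in KO_sg1 (adjusted p = 1.91e-07), by 2.10 ± 0.17 in KO_sg4 (adjusted p = 1.82e-07) and by 0.70 ± 0.18 in KD (adjusted p = 0.00285), all on the log2 scale. Among the members searched, Hes5 is the one whose promoter, printed above, holds the GTGGGAA matches. The promoter of Hes1 was not searched, so the 2 genes cannot be compared in this. In the Notch pathway list described below, 9 of 64 promoters searched (14.06%) held GTGGGAA, that of Hes5 included. The part of the matches in the rise of Hes5 was not tested.

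Counted over the 10 members, 1 rose and 5 fell in KO_sg1, where 38.8% of all genes tested were called, 16.9% higher and 21.9% lower. In KO_sg4 1 rose and 4 fell, where 40.0% of all genes were called, 18.0% higher and 22.0% lower. In KD 7 rose and 1 fell, where 77.6% were called, 37.2% higher and 40.4% lower. Of all calls in KO_sg1, 43.5% were higher, against 52.6% of calls with DESeq2's size factors in place of TMM and 30.0% with library totals; in KD the shares were 47.9%, 50.2% and 59.7%. Scaling by library totals moved the median of all genes in KD by 0.22 on the log2 scale. All 3 comparisons use the same WT libraries. Jag1 passed the filter on low counts through KD alone, and Notch4 through KD and KO_sg4, so the calls among the 9 tested members are a description of them and not support for a direction.

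**Figure D2:**
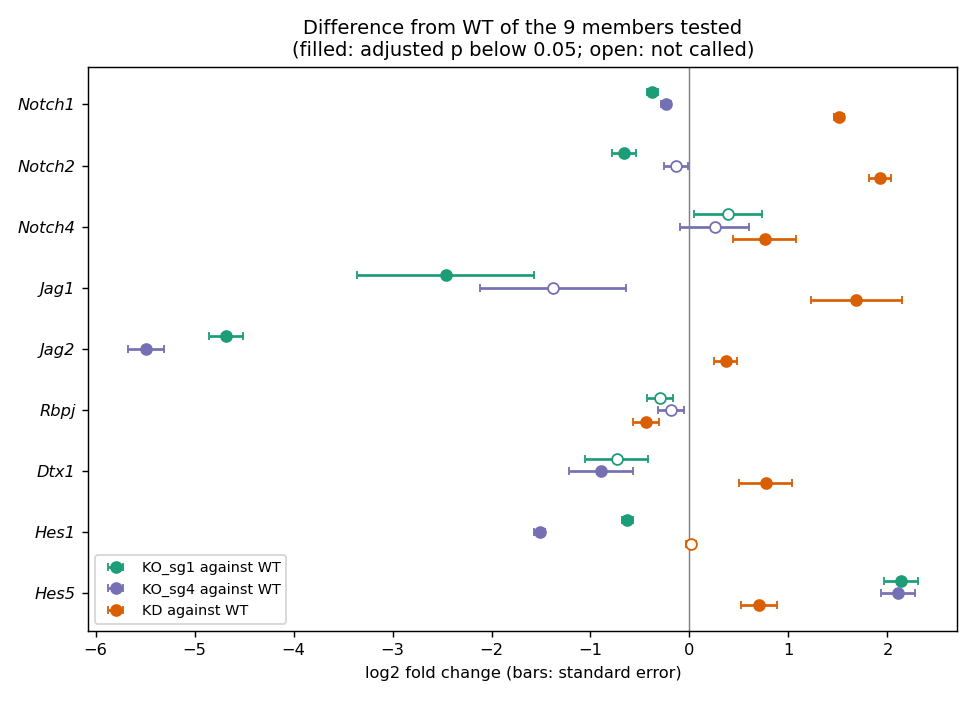
Log2 fold change against WT (horizontal axis) of the 9 tested members in KO_sg1, KO_sg4 and KD; bars are standard errors, and filled points passed an adjusted p of 0.05. Jag2 is lowest in both knockouts at -4.68 and -5.49, Hes5 is highest there at 2.14 and 2.10, and Notch2 is highest in KD at 1.93, followed by Jag1 at 1.69 and Notch1 at 1.51. Jag1 passed the filter on low counts through KD alone.

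Levels of different genes were set side by side per kilobase of the longest protein-coding transcript (GENCODE M21). In WT, Hes1 led with 36.6 CPM per kb, followed by Rbpj at 8.02, Jag2 at 4.90 ± 0.0455 (SD over 3 libraries) and Notch1 at 3.99 ± 0.120. Hes5 (1.45 ± 0.278) and Notch2 (1.17 ± 0.0345) came next and overlapped. Dtx1 at 0.287, Notch4 at 0.0721, Jag1 at 0.0291 and Notch3 at 0.00448 CPM per kb made up the low end. In KO_sg1, Hes5 at 6.40 ± 0.555 CPM per kb overlapped Rbpj at 6.51 ± 0.664, and Jag2 at 0.182 ± 0.0540 overlapped Dtx1 at 0.174 ± 0.0174. In KO_sg4 Hes1 had a level of 12.8 CPM per kb, with Rbpj at 7.01 and Hes5 at 6.25. In KD Notch1 stood second with 11.3 CPM per kb, after Hes1 at 37.0 and before Jag2 at 6.31, Rbpj at 5.93 and Notch2 at 4.45.

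The hairpin and the guides were then set against each other directly, the mean of both guides being the reference. Relative to the knockouts, KD was higher in Jag2 (log2 fold change 5.45 ± 0.13, adjusted p = 1.30e-13), Notch2 (2.33 ± 0.09, adjusted p = 1.25e-11) and Notch1 (1.81 ± 0.04, adjusted p = 8.43e-14). It was also higher in Dtx1 (1.58 ± 0.25, adjusted p = 3.26e-05) and Hes1 (1.09 ± 0.04, adjusted p = 1.64e-11), and lower in Hes5 (-1.42 ± 0.14, adjusted p = 3.19e-07). Since WT enters both sides alike, these are also the tests that the effects of hairpin and guides differ, and for these 6 members they did. Jag1 was also called higher in KD (adjusted p = 1.22e-05), but it passed the filter through KD alone, and its fitted value of 3.61 ± 0.51 rests on 2 and 5 counts in the knockouts and was 5.01 without KO_sg1 replicate 3. Rbpj (-0.19 ± 0.12, adjusted p = 0.131) and Notch4 (0.44 ± 0.26, adjusted p = 0.137) were not called; Rbpj was called without KO_sg4 replicate 2 (-0.29, adjusted p = 0.00287), and Notch4 when libraries were scaled by their totals (0.67, adjusted p = 0.0315). Over all genes 42.9% were called higher and 40.4% lower in this comparison.

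Between the guides 3 members differed, of which 1 was higher and 2 were lower in KO_sg4, where 13.8% of all genes were called higher and 13.4% lower. Hes1 was lower in KO_sg4 than in KO_sg1 by a log2 fold change of -0.89 ± 0.05 (adjusted p = 2.58e-08), and Notch2 was higher by 0.52 ± 0.12 (adjusted p = 0.00647; 0.065 when these 2 groups were fitted alone). Jag2 was lower by -0.81 ± 0.28 with overlapping libraries (adjusted p = 0.0485), and that call was lost in 14 of 20 alternatives, among them leaving out any one library other than KO_sg1 replicate 3 and KO_sg4 replicate 2 (adjusted p from 0.0592 to 0.174) and the replicate block (adjusted p = 0.0752). Of all calls between the guides 50.6% were higher in KO_sg4, against 72.9% when libraries were scaled by their totals. Notch1 was 0.14 ± 0.05 higher in KO_sg4 and not called (adjusted p = 0.0718), but called when libraries were scaled by their totals (0.25, adjusted p = 0.0105). Hes5 differed by -0.03 ± 0.15 (adjusted p = 0.885). Rbpj differed by 0.11 ± 0.13 (adjusted p = 0.562) and was called without KO_sg4 replicate 2 (0.27, adjusted p = 0.0363).

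A list of 82 genes of the Notch pathway, sorted by role and chosen with earlier results of these data known, placed the members among their partners. Of its 67 tested genes, 7 were higher and 20 lower in KO_sg1, 10 higher and 19 lower in KO_sg4, and 34 higher and 17 lower in KD. Over all genes the shares called higher and lower were 16.9% and 21.9%, 18.0% and 22.0%, and 37.2% and 40.4%. The median log2 fold change of the list was -0.11, -0.02 and 0.31, beside medians of -0.02, 0.00025 and -0.01 over all genes tested. Without the members, 58 genes were tested, of which KO_sg1 had 6 higher and 15 lower, KO_sg4 had 9 higher and 15 lower, and KD had 27 higher and 16 lower.

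Of the other ligands, Dll4, the Delta-like ligand of the thymus and of sprouting vessels, had the pattern of Jag2 in direction at a much lower level. It averaged 0.519 CPM in WT, 2.09 in KD, 0.0998 in KO_sg1 and 0.0819 in KO_sg4, the knockout levels lying near the floor of 1 library. Its log2 fold change was 2.00 ± 0.26 in KD, -2.27 ± 0.46 in KO_sg1 and -2.75 ± 0.48 in KO_sg4, each called. All 4 tested ligands were called higher in KD, 3 lower in KO_sg1 and 2 lower in KO_sg4, beside 37.2%, 21.9% and 22.0% of all genes; Jag1, which passed the filter through KD alone, is among those in KD and KO_sg1. None of the 3 noncanonical ligands listed passed the filter.

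The ligases that ubiquitinate ligands, a step needed for the ligand to pull on the receptor, included 2 named genes. Mib2 averaged 102 CPM in WT, 177 in KD, 49.7 in KO_sg1 and 34.7 in KO_sg4, with log2 fold changes of 0.80 ± 0.10, -1.04 ± 0.10 and -1.56 ± 0.10, each called. Neurl1b was lower in KO_sg1 (-1.57 ± 0.17) and higher in KD (0.50 ± 0.14), and was not called in KO_sg4 (-0.22). Of 3 tested ligases, 2 were higher in KD, 2 were lower in KO_sg1 and 1 was lower in KO_sg4, beside 37.2%, 21.9% and 22.0% of all genes.

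Of the genes that cut and decorate the receptor, most were called higher in KD, beside 37.2% of all genes and 66.1% of all genes whose product has a hydrophobic segment, as described below. Of 7 tested gamma-secretase genes 6 were higher in KD and none lower, among them Ncstn (1.59 ± 0.05), the subunit that receives substrates, Psen2 (1.54 ± 0.09), a catalytic presenilin, and Psenen (0.92 ± 0.07). All 3 other proteases were higher, including Furin, which cuts the receptor during its passage to the surface (1.17 ± 0.07). All 6 glycosylation genes were higher, including the Fringe enzymes Rfng (0.62 ± 0.07) and Mfng (0.58 ± 0.08), which change the affinity of receptors for ligands. In the knockouts 3 of 7 gamma-secretase genes were called in KO_sg1 and 2 in KO_sg4, and 1 of 6 glycosylation genes was called in each, beside 38.8% and 40.0% of all genes. Psen2 fell in KO_sg4 (-0.62 ± 0.10), Psenen rose in KO_sg1 (0.38 ± 0.07), Furin rose in KO_sg4 (0.40 ± 0.07) and Mfng rose in KO_sg1 (0.34 ± 0.08).

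**Figure D3:**
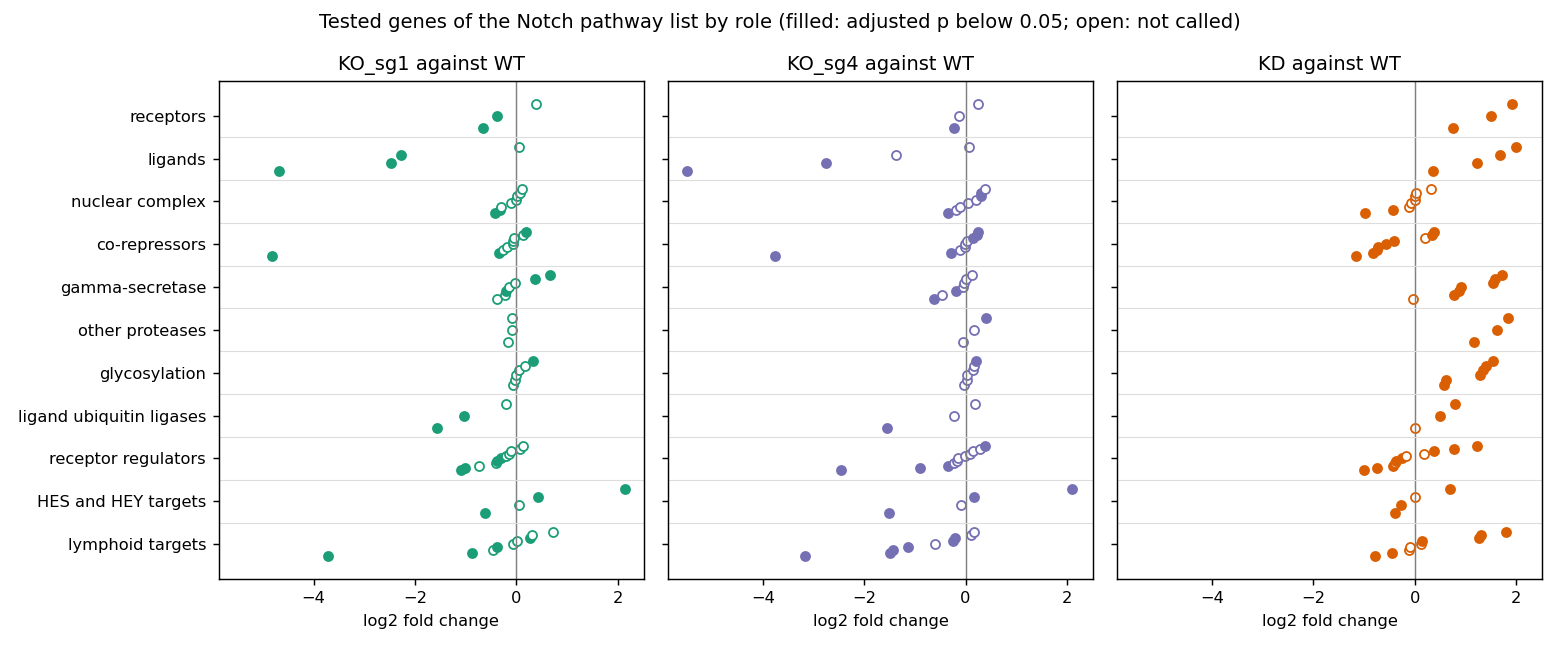
Log2 fold change against WT (horizontal axis) of the 67 tested genes of the Notch pathway list by role (rows), members included, in KO_sg1, KO_sg4 and KD; filled points passed an adjusted p of 0.05. In KD all receptors, ligands, other proteases and glycosylation genes lie to the right of 0, while in the knockouts the lowest of these points are the ligands, at -4.68 and -5.49 for Jag2.

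Of 8 tested genes of the nuclear complex, 0 rose and 2 fell in KD, one of them Rbpj, beside 37.2% and 40.4% of all genes. Of 9 tested co-repressors, 2 rose and 6 fell in KD, beside the same shares over all genes. The histone deacetylases Hdac1 (-0.75 ± 0.06) and Hdac2 (-1.16 ± 0.05) were lower there. In the knockouts Hdac1 was called higher, at 0.19 in KO_sg1 and 0.23 in KO_sg4. Hdac2 was called higher in KO_sg4 (0.14) and not called in KO_sg1 (-0.06). The call of Hdac1 in KO_sg1 was lost in 4 of 20 alternatives, and that of Hdac2 in KO_sg4 in 9 of 20. Ctbp2, a co-repressor recruited by RBPJ partners, fell in both knockouts. It averaged 8.16 CPM in WT, 10.3 in KD, 0.275 in KO_sg1 and 0.601 in KO_sg4. Its log2 fold change was -4.81 ± 0.17 in KO_sg1, -3.76 ± 0.15 in KO_sg4 and 0.34 ± 0.10 in KD, each called. The acetyltransferase Kat2b was at -0.31 ± 0.10 in KO_sg1 and -0.34 ± 0.10 in KO_sg4, both called. Both calls were lost without WT replicate 1 or 3, that in KO_sg1 also without KO_sg1 replicate 1 or 3, and that in KO_sg4 also without KO_sg4 replicate 3 (adjusted p from 0.0514 to 0.0877).

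Of 11 tested receptor regulators, KD had 3 higher and 5 lower, KO_sg1 had 0 higher and 4 lower, and KO_sg4 had 1 higher and 3 lower. In KD these are near the 37.2% and 40.4% of all genes. Over all genes 16.9% were higher and 21.9% lower in KO_sg1, and 18.0% and 22.0% in KO_sg4. Dtx4, a relative of Dtx1 with a far higher level, averaged 42.2 CPM in WT, 21.1 in KD, 20.9 in KO_sg1 and 7.66 in KO_sg4. Its log2 fold change was -1.0 ± 0.07 in KD, -1.01 ± 0.07 in KO_sg1 and -2.45 ± 0.08 in KO_sg4, so that it was lower in all 3 groups and, unlike Dtx1, in KD. Dtx3 rose in KD (1.23 ± 0.11). The ubiquitin ligase Nedd4 fell in KO_sg1 (-1.10 ± 0.09) and KD (-0.42 ± 0.09), the latter call lost when libraries were scaled by their totals (-0.20, adjusted p = 0.142).

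Among the 4 tested targets of the HES and HEY group, of 10 listed, was Nrarp, a direct target that feeds back on the receptor complex. It averaged 25.2 CPM in WT, 20.8 in KD, 34.0 in KO_sg1 and 28.1 in KO_sg4. It rose in KO_sg1 by 0.44 ± 0.06 and fell in KD by 0.28 ± 0.06 on the log2 scale, the latter call lost when libraries were scaled by their totals (-0.06, adjusted p = 0.450). In KO_sg4 Nrarp was called at 0.16 ± 0.06, and the call was lost without any WT library or KO_sg4 replicate 2 or 3 (adjusted p from 0.0573 to 0.125) and with the replicate block (adjusted p = 0.0763). Among 9 tested lymphoid targets, KD had 4 higher and 2 lower, KO_sg1 had 1 higher and 3 lower, and KO_sg4 had 0 higher and 6 lower. Over all genes 37.2% were higher and 40.4% lower in KD, 16.9% and 21.9% in KO_sg1, and 18.0% and 22.0% in KO_sg4. Ccnd1, which encodes cyclin D1, averaged 255 CPM in WT, 236 in KD, 19.4 in KO_sg1 and 28.4 in KO_sg4, and fell by 3.71 ± 0.08 and 3.16 ± 0.07 on the log2 scale in the knockouts. Il2ra, the alpha chain of the interleukin-2 receptor, rose in KD (1.27 ± 0.13) and fell in KO_sg1 (-0.88 ± 0.16) and KO_sg4 (-1.43 ± 0.16). Cr2, the complement receptor of mature B cells, rose from 29.5 CPM in WT to 103 in KD (1.81 ± 0.08). It was also called higher in KO_sg1 (0.27), a call lost in 2 of 20 alternatives. In KO_sg4 Cr2 was not called (0.18), but was called in 2 of 20 alternatives.

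The values in KD were also read by where the protein works, for the roles named next. The other roles were left out, and in these Mib2 (0.80), Dtx3 (1.23) and Hes5 (0.70) also rose in KD. Grouped after the values were seen, and so without a test, the receptors, ligands, gamma-secretase, other proteases and glycosylation genes held 23 tested genes, of which 22 were called higher in KD and none lower, with a median log2 fold change of 1.35; Jag1 among them passed the filter through KD alone. The nuclear complex and co-repressors held 17 tested genes, of which 2 were higher and 8 lower (47.1%, near the 40.4% of all genes), with a median of -0.11. A hydrophobic segment, a stretch of 19 residues with a mean Kyte-Doolittle hydropathy of at least 1.6 as in signal peptides and membrane spans, was found in the products of 21 of the 23 genes and of 1 of the 17. Over all tested genes with a known product, 3519 had such a segment and 66.1% of these were higher and 16.2% lower in KD, with a median of 0.86. Of the 6993 genes without a segment 21.2% were higher and 55.3% lower, with a median of -0.33. The part of this general shift in the rise of the receptors and ligands was not tested. Among the members a segment was found in all receptors, Jag1, Jag2 and Dtx1, and in none of Rbpj, Hes1 and Hes5. The cut-off reads the residues only, so a segment, as in Dtx1, does not show that a product is secreted or spans a membrane.

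**Figure D4:**
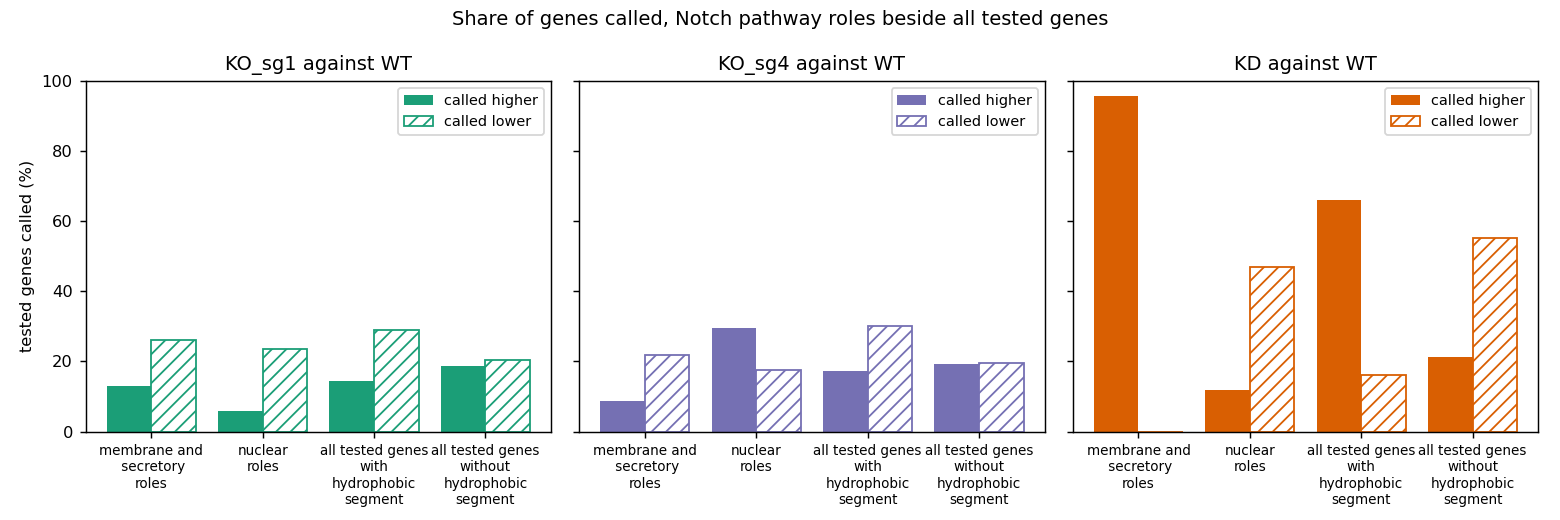
Share of tested genes called higher (filled) and lower (hatched) against WT, in percent (vertical axis), for pathway genes with membrane or secretory roles (23), those with nuclear roles (17), and all tested genes with (3519) or without (6993) a hydrophobic segment. In KD 95.7% of the first set and 66.1% of the third were higher. In KO_sg4 8.70% of the first and 29.4% of the second set were higher, and in both knockouts genes with a segment were lower more often (29.0% and 30.2%) than those without (20.4% and 19.6%); these gaps were not tested.

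The sums of genes listed as markers of other cells were also higher in KD than in WT, though not each gene in them. The sum of 10 myeloid markers ran from 27.4 to 28.4 CPM in the WT libraries and from 86.9 to 90.1 in the KD libraries, against 5.19 to 6.92 in KO_sg1 and 7.34 to 8.50 in KO_sg4, with S100a8 at 0 in WT, KD and both knockouts. In the myeloid list Lyz2 averaged 8.54 CPM in WT and 36.4 in KD, and Fcgr1 13.0 and 30.3. Itgam averaged 4.67 and 12.2, and Csf1r 1.49 and 9.51. Elane and S100a9 were at 0 in KD, and Mpo was at 0.0242 in WT and 0.0230 in KD. The sum of 12 stromal and endothelial markers ran from 33.3 to 34.8 CPM in WT, 92.2 to 93.1 in KD and 25.9 to 30.8 in the knockouts. Nearly all of it was Pecam1, also present on blood cells, at a mean of 32.8 CPM in WT and 89.0 in KD, with Cdh5 at 1.28 and 3.25 and Dcn, Kdr and Epcam at 0 in all 4 groups. Their part in the levels of Notch1, Notch2 and the ligands was not tested, and in bulk RNA fewer cells of a type and less RNA per cell cannot be told apart.

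For the 3 members with the widest range of group means, the genes with the most similar pattern were found by Pearson's r of log2 CPM over the 12 libraries, which share 4 groups, so that r mostly reflects group differences and has no p here. Jag2 was followed most closely by Ctsh (0.994), Ahnak (0.993) and Tle2 (0.991) and least by Orc1 (-0.988), of 9751 genes. Ahnak, which encodes a very large scaffold protein, averaged 163 CPM in WT, 199 in KD, 17.0 in KO_sg1 and 12.1 in KO_sg4, and Tle2, itself a co-repressor of the Groucho family, 4.46, 6.55, 0.238 and 0.0878. Notch2 was followed by Lamc1 (0.997), Iqgap1 (0.997) and Slc23a2 (0.996) and least by Tceb1 (-0.998). Jag1 was followed by Tmem8 (0.956), Tcn2 (0.954) and Ccr7 (0.954) and least by Phf19 (-0.958), but at its low counts 1 of these 3 remained when the prior count was 0.5 in place of 2, against 3 of 3 for Notch2 and 2 of 3 for Jag2.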

How the data were processed

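The values are estimated counts per gene symbol in a single table the authors deposited. The submitters' processing notes name RSEM 1.2.12, Bowtie 1.0.1 and the mm9 genome, and neither the annotation nor the strand setting is stated there or in the labels. RSEM divides reads between similar genes, and without strand a member cannot be told apart from an overlapping gene on the other strand; Notch1, Notch3, Notch4, Rbpj and Hes5 have one in GENCODE M21, none with a row in the table.

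Counts were rounded and filtered with edgeR 4.0.16 (R 4.3.3; filterByExpr, minimum count 10), leaving 12335 genes, scaled with TMM factors (0.88 to 1.14) and fitted by quasi-likelihood over all 12 libraries with 4 group means (common biological coefficient of variation 0.0768). Tests were two-sided, adjusted by Benjamini-Hochberg over all genes and called below 0.05; a standard error is the log2 fold change over the square root of F. The deposited libraries had 20382328 to 36032369 estimated counts; floors and intervals cover counting error only. No 2 replicates matched within counting error (chi-square per degree of freedom 3.38 to 64.1 over 12 pairs). The procedure was also run on simulated data with the same dispersion for every gene and far fewer changed genes than were called in KD. That run does not show how the procedure behaves under the conditions of these libraries.

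The members and lists were chosen with earlier results of these data known. Text names all members, Phf6, per role up to 3 other pathway genes called in at least 2 of 3 comparisons with WT, and the genes nearest to 3 members; Dcn, Kdr and the other markers come from the lists. Alternatives were DESeq2 1.42.0, limma-voom (limma 3.58.1), other scalings and filters, only the groups compared, a replicate block and each library left out. RefSeq and GENCODE (GRCm38) served for promoters, lengths and products only, since the counts rest on mm9.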

Additional observations from a re-analysis of the deposited data

Results flagged for a closer look

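Effects on several members differed between cell groups set against the same WT libraries. Between the knockouts, KO_sg4 relative to KO_sg1, the log2 difference was 0.52 for Notch2, -0.81 for Jag2 and -0.89 for Hes1. Between the hairpin and the mean of the guides it was 1.81 for Notch1, 2.33 for Notch2, 3.61 for Jag1 (on 2 and 5 counts in the knockouts; 5.01 without KO_sg1 replicate 3), 5.45 for Jag2, 1.58 for Dtx1, 1.09 for Hes1 and -1.42 for Hes5. With KO_sg1 or KO_sg4 alone as the reference, an alternative chosen after seeing the data, the direction stayed the same for these 7 members.

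The knockouts also differed in other genes of the pathway. KO_sg4 was higher than KO_sg1 in Ctbp2 (1.05, adjusted p = 0.0173), Neurl1b (1.35), Nedd4 (1.25), Ccnd1 (0.55), Dtx3 (0.49), Furin (0.48) and Hdac2 (0.20). It was lower in Dtx4 (-1.44), Il2ra (-0.55, adjusted p = 0.0358), Mib2 (-0.52), Psen2 (-0.40), Psenen (-0.40) and Nrarp (-0.28). Phf6 itself differed by 3.45 on the log2 scale (adjusted p = 2.93e-10), with KO_sg4 at 0.09 against WT, not called, and at 0.22 and called without KO_sg4 replicate 2 (adjusted p = 0.0321).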

How the results depend on the processing

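Each value was recomputed with other scalings, tests and filters, with only the groups compared, with the replicate block and without each library in turn. Of 905 alternative values for members, 833 kept direction and call, 47 lost and 13 gained the call, and 12 changed sign, none of them called; of 1260 for Phf6 and the other pathway genes named, 1192, 43, 13 and 12. Signs changed only for values that were not called. Hes1 in KD was -0.041 with no filter and ran from -0.000715 to 0.0511 without single libraries. Between the guides, Hes5 was 0.076 with library totals and ran from -0.128 to 0.0652 without single libraries, Notch4 from -0.356 to 0.124, Rbpj from -0.0960 to 0.266 and Dtx1 from -0.659 to 0.120. Rbpj in KD against the knockouts was 0.043 with library totals. The cause was not tested. Of the pathway genes, Rfng in KO_sg1 and Psenen in KO_sg4 were -0.024 and 0.0026 with library totals, Ccnd1 in KD was 0.11 there, and Kat2b in KD was -0.049 with no filter. Without single libraries Rfng ran from -0.00657 to 0.131, Psenen from -0.0922 to 0.0708, Kat2b from -0.0578 to 0.0566 and Phf6 in KO_sg4 from -0.0612 to 0.225.

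Calls between the guides fell from 3359 genes, 3 members and 27 pathway genes to 1595, 1 and 10 when only these 2 groups were fitted, and ran from 2280 to 5329 genes (5329 without KO_sg4 replicate 2) and from 14 to 34 pathway genes (14 without KO_sg1 replicate 1) without single libraries; members ran from 2 to 4. Fitted with WT alone, KO_sg1 had 5731 genes called in place of 4784, and KO_sg4 had 3743 in place of 4929. Pathway genes called went from 27 to 36 in KO_sg1 and from 29 to 21 in KO_sg4. The main fit shares its estimate of spread over all 4 groups. Libraries that share a replicate number did not deviate together over all tested genes (r from -0.238 to 0.101 over 18 pairs). With 3 libraries per group this cannot exclude a pairing that is small or limited to few genes. With the replicate block, 4264 genes and 5 members were called in KO_sg1, 4423 and 4 in KO_sg4, 9345 and 8 in KD, 2730 and 2 between the guides and 10108 and 7 between hairpin and guides; pathway genes numbered 26, 24, 51, 20 and 55. With a minimum count of 50 Jag1 and Notch4 were not tested. Depth limits Jag1 and Notch3 most, at or near the floor of 3 counts.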
